A study of Mus musculus with 16 samples.

Results

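The nuclear-encoded subunits and named assembly factors of respiratory chain complexes I to IV were examined in macrophages sorted from the perigonadal fat of lean and obese mice. Members were chosen by symbol alone: a probe set with exactly 1 gene symbol, where that symbol begins with Nduf, Sdha, Sdhb, Sdhc, Sdhd, Uqcr, Cox4i, Cox5, Cox6, Cox7 or Cox8. This gave 154 probe sets for 77 genes, out of 18193 genes with a single-symbol probe set. Each gene was followed through the probe set with its highest mean. Of the 77 genes, 71 exceeded the median of all probe sets on 4 or more of the 16 arrays, and these were tested. The other 6 were Cox6b2, Cox7a1, Cox7b2, Cox8b, Ndufa4l2 and Ndufb4. The prefixes also take in assembly factors, which are no subunits of a complex.

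The respiratory chain sits in the inner mitochondrial membrane. Complex I takes electrons from NADH and complex II takes them from succinate, both pass them to ubiquinone, complex III passes them on to cytochrome c, and complex IV hands them to oxygen. Complex I has a core of redox and proton-pumping subunits with bacterial counterparts, which is surrounded by accessory subunits and put together by assembly factors. In macrophages the balance between respiration and glycolysis is known to shift with activation state.

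The study crossed genotype with macrophage population in 4 groups of 4 arrays. Lean mice were C57BL/6J Lep +/+ and obese mice were C57BL/6J Lep ob/ob, which lack leptin in every cell of the body, all 12 to 14 weeks old. From the digested fat of each genotype, FB cells (F4/80+, CD11b+, CD11c-) and FBC cells (F4/80+, CD11b+, CD11c+) were sorted, and the design text states that both populations came from 4 lean and 4 obese mice. RNA from every sample was amplified over 2 rounds before hybridization to Affymetrix mouse expression arrays, so all groups share that step. Values are log2 of the deposited intensity plus 16, quantile normalized over the 16 arrays. A gene is called where limma's moderated test gives a Benjamini-Hochberg adjusted p under 0.05 over the 11908 genes tested, and changes are given on this log2 scale with their standard error. In sorted bulk samples, fewer cells of a type and less RNA per cell cannot be told apart.

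The arrays differed in the 3′ to 5′ signal ratio of actin, and whether RNA quality or the amplification set it was not tested. The actin control probe sets gave a 3′ to 5′ signal ratio of 53.3 in lean FB array 4, 48.0 in lean FBC array 4 and 45.0 in obese FB array 4, and 1.15 to 10.9 in the other 13, so obese FBC is the group without such an array (1.15 to 4.69). All 9 macrophage markers were measured, and their summed deposited intensity was 37785 to 61864 over the 16 arrays. In obese against lean FBC 2 of the 9 rose, Adgre1 by 1.08 ± 0.24 and Fcgr1 by 0.96 ± 0.28, and the median change of the 9 was 0.69. Of the 4 dendritic cell markers measured, 3 were tested there: Zbtb46 fell by 1.79 ± 0.33, while Ccr7 (mean log2 level 9.14 in lean and 8.11 in obese FBC) and Flt3 (7.14 and 8.15) were not called. Xcr1 was never above the array median, and the 4 summed to 724 to 1226 in lean and 529 to 1059 in obese FBC. Itgax, which encodes CD11c, was 1.49 ± 0.26 higher in FBC than in FB of lean mice and 2.20 ± 0.26 higher in obese mice, in the direction of the titles; the cell type label of FBC itself carries both signs for CD11c. The summed intensity of the 6 adipocyte markers measured was 1172 to 6491 in lean FBC against 299.7 to 738 in obese FBC, and 1761 to 5536 in lean FB against 231 to 358 in obese FB. Most of that sum is Car3, whose log2 level averaged 11.92 in lean FB, 7.60 in obese FB, 11.78 in lean FBC and 8.15 in obese FBC. Of the 4 adipocyte markers tested, 1 was called lower (Car3) and 1 higher (Lep, by 1.12 ± 0.36) in obese against lean FBC. The 7 fibroblast markers summed to 2654 to 22814 in lean FB, 1893 to 2763 in obese FB, 1439 to 14127 in lean FBC and 2570 to 12164 in obese FBC. The part of these other cells in the results below was not tested. Lep itself does not check the genotype labels, since the ob allele leaves a transcript; it averaged 4.59 in lean FB, 5.60 in obese FB, 5.00 in lean FBC and 6.13 in obese FBC on the log2 scale.

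The start-site windows of 3 members are shown because these genes were called in the comparisons below and show the 3 cases of an ETS match, an NRF1 match and none, and because promoters of this gene family are known for binding sites of NRF1 and of ETS factors such as GABP. Each runs from 250 bases before to 49 bases after the annotated start, 5′ to 3′ on the gene's strand, from RefSeq on GRCm38.p6. Capitals mark a match to the searched letters, GCATGCGC for NRF1 or CCGGAAG for ETS factors, on either strand.
Ndufs3, a complex I core subunit (chr2:90904672-90904971, minus strand, 2 separate ETS matches): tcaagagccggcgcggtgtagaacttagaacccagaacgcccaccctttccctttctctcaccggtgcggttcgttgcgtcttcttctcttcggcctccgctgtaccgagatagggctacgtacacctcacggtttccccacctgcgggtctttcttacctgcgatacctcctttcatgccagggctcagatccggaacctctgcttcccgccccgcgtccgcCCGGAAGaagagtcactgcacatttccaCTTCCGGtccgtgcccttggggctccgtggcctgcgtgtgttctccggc
Uqcrc1, a complex III core protein (chr9:108936398-108936697, plus strand, 2 overlapping NRF1 matches on opposite strands): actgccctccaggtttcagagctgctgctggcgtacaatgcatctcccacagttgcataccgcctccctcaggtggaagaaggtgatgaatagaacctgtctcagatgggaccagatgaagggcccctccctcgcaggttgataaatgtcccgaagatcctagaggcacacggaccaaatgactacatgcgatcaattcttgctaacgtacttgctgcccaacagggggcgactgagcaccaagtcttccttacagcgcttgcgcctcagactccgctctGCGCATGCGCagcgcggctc
Ndufb3, a complex I accessory subunit (chr1:58586147-58586446, plus strand, no match in this window): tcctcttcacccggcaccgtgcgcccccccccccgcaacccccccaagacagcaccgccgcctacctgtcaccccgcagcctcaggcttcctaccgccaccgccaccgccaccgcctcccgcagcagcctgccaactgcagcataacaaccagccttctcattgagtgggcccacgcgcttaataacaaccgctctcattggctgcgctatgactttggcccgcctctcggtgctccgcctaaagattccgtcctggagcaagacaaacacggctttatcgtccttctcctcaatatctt
The Ndufs3 matches lie at bases 224 to 230 and 252 to 258 of the window, on either side of the start. The Uqcrc1 matches lie at bases 281 to 288 and 283 to 290 and share a palindromic run. Windows were found for 63 of the 77 members, 65 windows in all. The NRF1 letters were in 12.3% of the members' windows and in 2.71% of all 32851 windows. The ETS letters were in 24.6% against 8.86%, and the letters AAGATGGCG of YY1, searched on both strands too, in 7.69% against 1.40%. Median GC content was 59.0% in the members' windows and 52.7% in all windows. Of the other called members below, Cox8a has ETS matches in its window and Ndufv1 has none of these letters. A match is a run of letters and no evidence of binding.

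Obesity was compared first in the CD11c+ FBC population, where most of the called members were found. Transcripts of 3 complex I core subunits (Ndufs1, Ndufs3 and Ndufv1), of the complex III core protein Uqcrc1 and of the small complex IV subunit Cox8a rose in obese mice by 0.69 to 0.91, while the complex I accessory subunit Ndufb3 fell by 0.80. That is 5 of 71 members higher and 1 lower, against 8.12% and 5.95% of all genes tested that were called higher and lower, so the share called higher, 7.04%, is near the background and the share called lower, 1.41%, is below it. Among the 71 members, 22 (31.0%) had an unadjusted p under 0.05, and so had 28.9% of all genes tested. The members' changes ran from -1.05 to 0.91, with 25 above and 46 below zero and a median of -0.14, while the median over all genes tested was 0.08. The members' median was -0.23 without lean FBC array 1, -0.07 without lean FBC array 3 or 4, -0.06 without obese FBC array 2 and -0.02 with the mean of all probe sets, with 19 to 32 members above zero over the 16 arrays left out. The split of the calls depended on scaling: 4 members were called higher and 4 lower without normalization between arrays, and 4 and 3 with median centring. It also depended on single arrays, with 2 higher and 9 lower without lean FBC array 1, 2 and 1 without lean FBC array 2, 3 and 0 without obese FBC array 2, and 2 and 0 without obese FBC array 3.

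**Figure D1:**
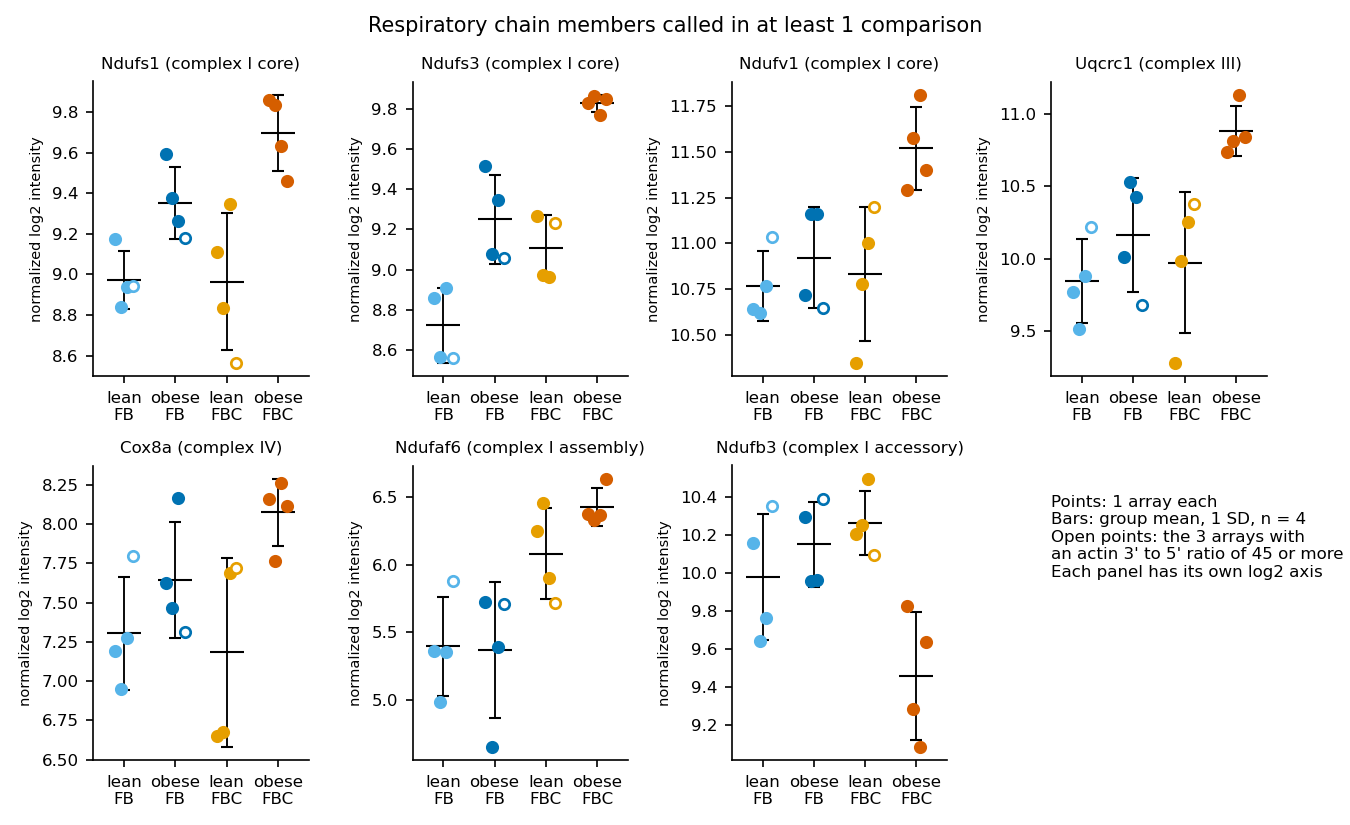
Normalized log2 intensity (vertical axis, scaled separately in each panel) of the 7 members called in at least 1 comparison, in each of the 4 groups; points are arrays, bars the group mean and 1 SD, and open points the 3 arrays with an actin ratio of 45.0 or more. In obese FBC all 4 arrays of Ndufs1, Ndufs3, Ndufv1, Uqcrc1 and Cox8a lie above all 4 of lean FBC, and all 4 of Ndufb3 below.

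The core subunits of complex I carry its flavin and iron-sulfur clusters, and 6 were tested. Ndufs3, which joins the electron-transfer arm to the site where ubiquinone is reduced, read 9.27, 8.97, 8.96 and 9.23 in lean FBC and 9.83, 9.87, 9.77 and 9.85 in obese FBC. The 4 obese arrays lay close together and above every lean array. The rise was 0.72 ± 0.16, a 1.65-fold change, with an adjusted p of 0.00683. Ndufs1, the iron-sulfur subunit of the electron input arm, read 9.11, 8.84, 9.35 and 8.57 in lean FBC and 9.86, 9.83, 9.63 and 9.46 in obese FBC. Its groups did not overlap either, although the lean arrays were widely spread, and it rose by 0.73 ± 0.18 (adjusted p = 0.0136). The calls of Ndufs3 and Ndufs1 held under all 31 alternatives run on them, with changes of 0.66 to 0.83 and 0.59 to 0.86.

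Ndufv1, the subunit that binds NADH and FMN, read 10.35, 10.77, 11.00 and 11.20 in lean FBC and 11.29, 11.58, 11.81 and 11.40 in obese FBC. The lowest obese array was just above the highest lean one. It rose by 0.69 ± 0.20 (adjusted p = 0.0341), and its 2 other probe sets, fitted singly, read 0.99 ± 0.19 and 0.50 ± 0.19. Its call was lost without normalization between arrays (adjusted p = 0.0791), with median centring (0.123), in the fit on these 2 groups alone (0.0677), and without lean FBC array 1 (0.0944), lean FBC array 2 (0.0814), obese FBC array 2 (0.0806), obese FBC array 3 (0.0914) or obese FBC array 4 (0.0508). The iron-sulfur subunits Ndufv2, Ndufs8 and Ndufs7 were not called, with changes of 0.16 ± 0.21, -0.20 ± 0.26 and -0.46 ± 0.18. The median over the 6 core subunits was 0.42 (0.26 to 0.40 under the other scalings, and 0.24 without lean FBC array 1), with 3 called.

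The accessory subunits surround the core and are needed for its stability and assembly. Of 27 tested, 0 were called higher and 1 lower, 3 changes were above and 24 below zero, and the median was -0.25. Ndufb3, an accessory subunit of the membrane arm, read 10.21, 10.25, 10.50 and 10.10 in lean FBC and 9.83, 9.29, 9.09 and 9.64 in obese FBC. Every obese array was below every lean array, and it fell by 0.80 ± 0.20 (adjusted p = 0.0157). The call was lost without obese FBC array 2 (adjusted p = 0.0510) or obese FBC array 3 (0.0501). The next largest change was that of Ndufb10, also of the membrane arm, at -0.73 ± 0.29 (adjusted p = 0.109), with overlapping arrays, obese at 9.27, 9.64, 10.32 and 9.74 and lean at 9.75, 10.49, 10.95 and 10.70. It was called without lean FBC array 1 (-0.97, adjusted p = 0.0379). Ndufa6 (-0.63 ± 0.25), Ndufa5 (-0.61 ± 0.27), Ndufb7 (-0.57 ± 0.19) and Ndufa13 (-0.54 ± 0.18) followed, none of them called. At the other end stood Ndufa9 at 0.28 ± 0.21 and Ndufs5 at 0.23 ± 0.22.

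The position of the accessory subunits below zero was found under each scaling tried, with 22 to 24 of 27 below zero and medians of -0.32 to -0.25. It was less marked once the 3 arrays of high actin ratio were left out: 19 of 27 were below zero and the median was -0.16. Over the 16 arrays left out in turn the median was -0.37 to -0.16, the latter without lean FBC array 4. As a mean over the 27 genes, each centred on its own mean, lean FBC arrays spanned -0.18 to 0.38 and obese FBC arrays -0.30 to 0.00, so the groups overlapped. The mean over the 6 core subunits spanned -0.40 to 0.14 in lean FBC and 0.17 to 0.31 in obese FBC.

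The 8 complex I assembly factors tested held 0 calls in this comparison and 1 unadjusted p under 0.05. Their changes ran from -0.44 (Ndufaf8) to 0.53 (Ndufaf3, ± 0.23, adjusted p = 0.138), with 4 above and 4 below zero. Ndufaf1, which acts early on the membrane arm, changed by 0.25 ± 0.15.

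**Figure D2:**
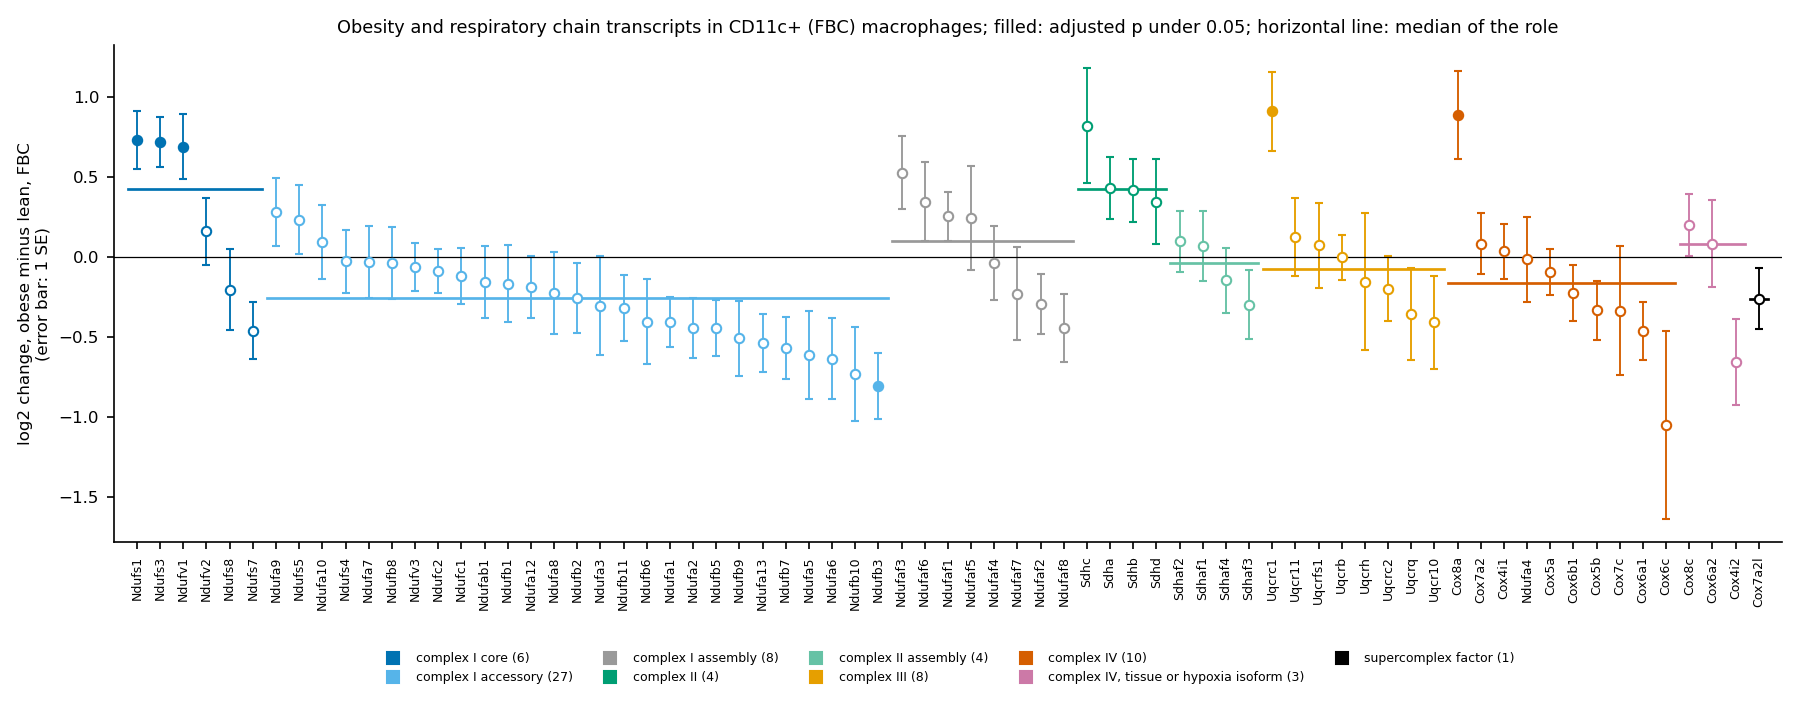
Change from lean to obese in FBC cells (vertical axis, log2, bars 1 SE) of the 71 members tested, ordered by role and, within a role, by size; filled points passed an adjusted p under 0.05 and each horizontal line is the median of a role. The core subunits of complex I have a median of 0.42, the accessory subunits -0.25 and complex II 0.42.

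Complex II, succinate dehydrogenase, is the member shared with the tricarboxylic acid cycle, and its 4 subunits were all measured. None was called in obese against lean FBC by limma, with 3 of the 4 at an unadjusted p under 0.05. Sdha, the flavoprotein that oxidizes succinate, read 11.90, 11.27, 11.15 and 11.46 in lean FBC and 11.99, 12.30, 11.55 and 11.66 in obese FBC. The groups overlapped, and the change was 0.43 ± 0.20 (adjusted p = 0.156). Sdhb, the iron-sulfur subunit, changed by 0.42 ± 0.20. The membrane anchors Sdhc and Sdhd changed by 0.82 ± 0.36 and 0.35 ± 0.26. With the mean of all probe sets of a gene, 1 of the 4 was below zero. The complex II assembly factors Sdhaf1 to Sdhaf4 had changes of -0.30 to 0.10 and 0 calls.

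Of the 8 complex III genes tested, 1 was called. Uqcrc1, a core protein on the matrix side, read 9.28, 9.98, 10.25 and 10.38 in lean FBC and 10.74, 10.81, 11.13 and 10.85 in obese FBC. Lean array 1 was the lowest of these arrays and the 4 obese arrays lay close together above all lean ones. The rise of 0.91 ± 0.25, a 1.88-fold change, had an adjusted p of 0.0220. The call was lost without lean FBC array 1 (0.68, adjusted p = 0.0617), lean FBC array 2 (0.91, 0.0516) or obese FBC array 3 (0.83, 0.0589). Its partner core protein Uqcrc2 changed by -0.20 ± 0.20, and Uqcrfs1, the Rieske iron-sulfur protein, by 0.07 ± 0.27. The small subunits Uqcr10, Uqcr11, Uqcrb, Uqcrh and Uqcrq had changes of -0.41 to 0.12. The median of the 8 was -0.08, 0.09 with the mean of all probe sets and -0.22 (without lean FBC array 1) to 0.02 (without obese FBC array 3) over the arrays left out.

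Of the 10 broadly expressed complex IV genes tested, 1 was called. Cox8a, a small membrane subunit, read 6.65, 6.67, 7.69 and 7.72 in lean FBC and 8.16, 7.77, 8.26 and 8.11 in obese FBC. The lean arrays fell into a low and a high pair, and the high pair came close to the lowest obese array. The rise was 0.89 ± 0.27 (adjusted p = 0.0406). It rests on 1 probe set. Of the other 2, 1 passed the filter on dim genes and read 0.14 ± 0.50, and the other read -0.01 ± 0.28. The mean of all 3 gave 0.34 (adjusted p = 0.459). The call was also lost without the filter on dim genes (0.0573), in the fit on these 2 groups alone (0.0662), and without lean FB array 3 (0.0519), lean FBC array 1 (0.114), lean FBC array 2 (0.127) or obese FBC array 1 (0.0806), 2 (0.0511), 3 (0.0908) or 4 (0.0802).

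The median of the 10 was -0.16, 0.01 with the mean of all probe sets, and -0.09 without lean FBC array 4 or obese FBC array 3. The other members of complex IV were not called in obese against lean FBC. Cox5a, which sits on the matrix side and is one of the least variable members, read 12.84 to 13.15 in lean FBC and 12.84 to 13.09 in obese FBC, a change of -0.09 ± 0.14. Cox4i1, the ubiquitous form of the subunit that senses ATP and ADP, changed by 0.04 ± 0.17, and by -0.25 with median centring and -0.21 without normalization. Cox6a1 changed by -0.46 ± 0.18 (adjusted p = 0.0974, and 0.0480 without lean FBC array 1), and Cox7a2 by 0.08 ± 0.19. Ndufa4, named for complex I and now known as a complex IV subunit, changed by -0.01 ± 0.26, with obese arrays at 9.96, 9.29, 8.75 and 10.36 on both sides of lean arrays at 9.62, 9.35, 9.74 and 9.72. Cox6c had the lowest change, -1.05 ± 0.59 (adjusted p = 0.251), and its arrays were the most scattered of any member. They read 10.68, 11.12, 11.20 and 12.70 in lean FBC and 11.90, 9.44, 9.74 and 10.41 in obese FBC. Its other probe set, as bright, gave -0.05 ± 0.19.

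Complex IV has tissue and hypoxia forms of several subunits, which here were mostly dim. The muscle forms Cox7a1 and Cox8b and the testis forms Cox6b2 and Cox7b2 were not tested; Cox7a1 was above the array median on 1 of 16 arrays and the other 3 on 0. Ndufa4l2, the hypoxia-induced relative of Ndufa4, was above it on 1 array, obese FB array 1, at 6.36 against 4.32 to 5.32 on the other 15. Cox4i2, the hypoxia form of Cox4i1, read 5.26, 5.85, 6.03 and 5.44 in lean FBC and 5.13, 4.66, 5.19 and 4.98 in obese FBC. All obese arrays were below all lean ones, and the change of -0.66 ± 0.27 was not called (adjusted p = 0.117). Cox6a2, the muscle form of Cox6a1, changed by 0.08 ± 0.27, and the testis form Cox8c by 0.20 ± 0.19. Of the 5 skeletal muscle markers, Mb, Myh4 and Tnnt3 stayed below the array median on all 16 arrays, Ckm was above it on 1 and Acta1 on 9, and their summed intensity was 56 to 160. Of the 3 brown fat markers, Cidea was never above it, Ucp1 on 5 arrays and Elovl3 on 6, with sums of 36 to 128. Cox7a2l, listed here as a factor for supercomplexes of the chain, changed by -0.26 ± 0.19. Whether its protein acts so in these C57BL/6J mice was not tested.

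In CD11c- FB cells, obesity moved no member past the threshold. By limma 0 of 71 members were called, where 5.89% of all genes tested were called in either direction, and 6 members (8.45%) had an unadjusted p under 0.05, against 20.2% of all genes. Of the 71 changes, 55 were above and 16 below zero, with a median of 0.17 against 0.03 for all genes tested. With the mean of all probe sets 2 members were called higher, and 1 was called without obese FB array 4. The complex I core subunit Ndufs3 came closest. It read 8.86, 8.57, 8.91 and 8.56 in lean FB and 9.52, 9.08, 9.35 and 9.06 in obese FB. The groups did not overlap, and the change was 0.53 ± 0.16 (adjusted p = 0.0576).

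The largest FB changes upward were those of the assembly factor Ndufaf5 (0.70 ± 0.32), of Cox6c (0.68 ± 0.59) and of Ndufa4 (0.57 ± 0.26). Ndufa4 read 9.33, 9.04, 9.40 and 9.55 in lean FB and 9.75, 10.01, 10.09 and 9.77 in obese FB, without overlap, and its adjusted p was 0.234. The lowest changes were those of Cox4i2 (-0.51 ± 0.27), Ndufa12 (-0.20 ± 0.19) and Cox6a2 (-0.18 ± 0.27). Of the catalytic and core subunits picked from each complex, Ndufs1 changed by 0.38 ± 0.18 with groups that did not overlap, Sdha by 0.19 ± 0.20, Uqcrfs1 by 0.34 ± 0.27 and Cox5a by 0.09 ± 0.14. By role the median was 0.16 for the complex I core, 0.12 for its accessory subunits, 0.39 for its assembly factors, 0.32 for complex II, 0.28 for complex III and 0.18 for complex IV, with 0 calls in each. These depended on single arrays: the core median was 0.10 without obese FB array 2 and 0.25 without obese FB array 1 or 4, the accessory median 0.05 without lean FB array 2 and 0.06 without obese FB array 3, that of complex II 0.21 without obese FB array 2, and that of complex IV 0.10 and 0.07 without lean FB array 2 and 3 and 0.09 without obese FB array 4. Among the pairs of broad and tissue forms, Cox4i1 changed by 0.22 ± 0.17, Cox6a1 by -0.11 ± 0.18, Cox7a2 by 0.09 ± 0.19 and Cox8a by 0.34 ± 0.27.

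**Figure D3:**
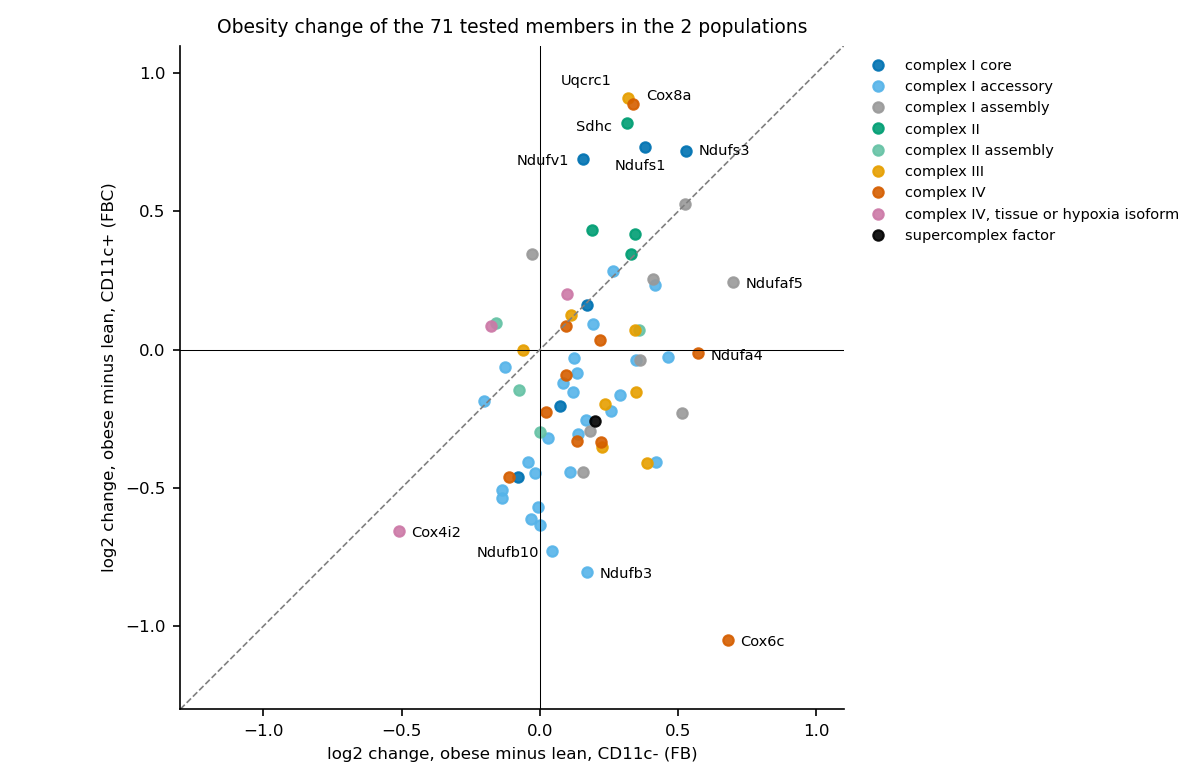
Change from lean to obese (log2) of the 71 members tested, in FB cells on the horizontal and in FBC cells on the vertical axis, coloured by role; the dashed line marks equal change in both populations. 52 members lie below the line and 19 above it, with Cox6c (0.68 in FB, -1.05 in FBC) farthest from it.

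Whether the effect of obesity differed between FBC and FB was tested directly as the difference of the 2 changes. By limma 0 of 71 members were called, where 0.160% of all genes tested were, and 2 members (2.82%) had an unadjusted p under 0.05, against 13.2% of all genes. The median difference was -0.29 against 0.07 for all genes tested, with 19 above and 52 below zero. With median centring the median was -0.49, and without lean FBC array 1 it was -0.43. Ndufb3 had a difference of -0.98 ± 0.29 (adjusted p = 0.169): its obesity change was 0.17 ± 0.20 in FB and -0.80 ± 0.20 in FBC. It was called without lean FB array 4 (-1.09, adjusted p = 0.0490). Ndufb6, another accessory subunit, had a difference of -0.83 ± 0.37 and Cox6c one of -1.73 ± 0.83. The differences farthest above zero were those of Uqcrc1 (0.59 ± 0.35), Cox8a (0.55 ± 0.39) and Ndufv1 (0.53 ± 0.29), so a different effect of obesity on these genes in the 2 populations was not shown. The accessory subunits had a median difference of -0.40 with 24 of 27 below zero, the complex I core 0.09, complex II 0.16 and complex IV -0.30. With median centring the core median was -0.09 and that of complex II -0.01, and over the arrays left out they were 0.02 to 0.18 and 0.05 to 0.31. Among single subunits the difference was 0.35 ± 0.26 for Ndufs1, 0.24 ± 0.28 for Sdha, -0.27 ± 0.38 for Uqcrfs1 and -0.19 ± 0.20 for Cox5a. Of the isoform pairs, Cox4i1 and Cox4i2 had differences of -0.18 and -0.15, Cox6a1 and Cox6a2 of -0.35 and 0.26, Cox7a2 of -0.01 and Ndufa4 of -0.59.

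The 2 populations were compared within each genotype next. In lean mice 0 of 71 members were called in FBC against FB by limma, where 0.193% of all genes tested were, and 6 (8.45%) had an unadjusted p under 0.05, against 8.20% of all genes. The median was 0.17 against -0.00 for all genes tested, with 59 members above and 12 below zero. It was 0.33 with median centring, 0.27 without lean FBC array 1 and 0.10 without lean FBC array 4. The assembly factors stood highest: Ndufaf6 at 0.69 ± 0.25 (adjusted p = 0.435), Ndufaf5 at 0.68 ± 0.32 and Ndufaf1 at 0.63 ± 0.15 (adjusted p = 0.120). Ndufaf1 read 6.76, 6.86, 6.83 and 6.51 in lean FB and 7.56, 7.17, 7.25 and 7.51 in lean FBC, with no overlap. Cox8c (-0.37 ± 0.19), Cox7c (-0.22 ± 0.40) and Cox4i2 (-0.14 ± 0.27) stood lowest, and the subunits Ndufs1, Sdha, Uqcrfs1 and Cox5a lay between -0.01 and 0.20. Ndufaf1 was called with mouse as a random block (adjusted p = 0.0494). Among the isoform pairs, Ndufa4 changed by 0.27 ± 0.26, and Cox4i1, Cox6a1, Cox6a2, Cox7a2 and Cox8a lay between -0.13 and 0.08.

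In obese mice, 2 of 71 members rose and 1 fell in FBC against FB. Both shares are below those over all genes tested, of which 5.11% were called higher and 3.28% lower. An unadjusted p under 0.05 was found for 10 members (14.1%), against 25.1% of all genes. Ndufaf6, an assembly factor of complex I, read 5.72, 4.65, 5.39 and 5.71 in obese FB and 6.38, 6.33, 6.37 and 6.64 in obese FBC. The FBC arrays lay together above all FB arrays, and it rose by 1.06 ± 0.25 (adjusted p = 0.0147). All 4 obese FB arrays were below the array median, so the gene passed the filter on dim genes through other groups and the size of the change is uncertain; it was 1.52 with a pseudocount of 1. Of the 32 alternatives of this comparison, 31 could be run on it, and the call held under all 31, with changes of 0.82 to 1.52. In the other, the gene did not pass the filter. Ndufs3 was higher by 0.58 ± 0.16 (adjusted p = 0.0311), with the values given above and no overlap. Ndufb3 read 10.30, 9.96, 9.96 and 10.39 in obese FB and fell by 0.69 ± 0.20 in FBC (adjusted p = 0.0457), again without overlap.

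These last 2 calls were lost under some of the alternatives. That of Ndufs3 was lost in the fit on these 2 groups alone (adjusted p = 0.0640), with the actin ratio as a covariate (0.0830) or with its 3 high arrays removed (0.0503), and without obese FB array 2 (0.0901) or 4 (0.0874) or obese FBC array 1 (0.0546), 2 (0.0814), 3 (0.0544) or 4 (0.0670). That of Ndufb3 was lost under 21 of 32 alternatives, among them all 3 other scalings (0.0605 to 0.109), leaving out any obese FB array (0.0573 to 0.124), obese FBC array 2 (0.127), 3 (0.124) or 4 (0.0609), lean FB array 1 (0.0550) or 3 (0.0551), or lean FBC array 1 (0.0529), 2 (0.0612) or 3 (0.0519). The number of members called was 1 in place of 3 without obese FB array 2 or 4, or without obese FBC array 2, 3 or 4.

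The members' median in obese FBC against FB was -0.14, with 28 above and 43 below zero, against 0.08 for all genes tested. It was -0.05 without obese FBC array 2, -0.06 without obese FBC array 3 and -0.03 with the mean of all probe sets. Complex II had a median of 0.45 (0.33 to 0.63 over the arrays left out) with 0 calls, Sdhc being highest at 0.75 ± 0.36, where obese FB array 4 stood apart at 6.98 below the other FB arrays at 8.58 to 8.68. Uqcrc1 changed by 0.72 ± 0.25 (adjusted p = 0.0807, and 0.0386 with the block by mouse or 0.0445 without lean FBC array 1) and Ndufv1 by 0.60 ± 0.20 (adjusted p = 0.0804), each without overlap between the groups. Cox6c (-1.20 ± 0.59, adjusted p = 0.215, and 0.0172 with the block by mouse) and Cox7c (-0.78 ± 0.40) were lowest beside Ndufb3. Cox7c read 7.68, 8.44, 8.09 and 9.01 in obese FB and 7.69, 7.62, 7.84 and 6.95 in obese FBC, and 9.50 in lean FB array 4 and 8.56 in lean FBC array 4, so its highest value in each of the other 3 groups was on the array of high actin ratio. Its change was -0.19 once that ratio was a covariate and -0.34 with the mean of its probe sets. The chosen probe set of Cox6c was likewise highest on array 4 of lean FB (12.18), lean FBC (12.70) and obese FB (12.62). Of the subunits followed in every comparison, Ndufs1 changed by 0.35 ± 0.18, Sdha by 0.41 ± 0.20, Uqcrfs1 by -0.22 ± 0.27 and Cox5a by 0.01 ± 0.14. The isoform pairs gave -0.25 and -0.29 for Cox4i1 and Cox4i2, -0.27 and 0.18 for Cox6a1 and Cox6a2, -0.14 for Cox7a2, 0.43 for Cox8a and -0.31 for Ndufa4, none of them called.

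**Figure D4:**
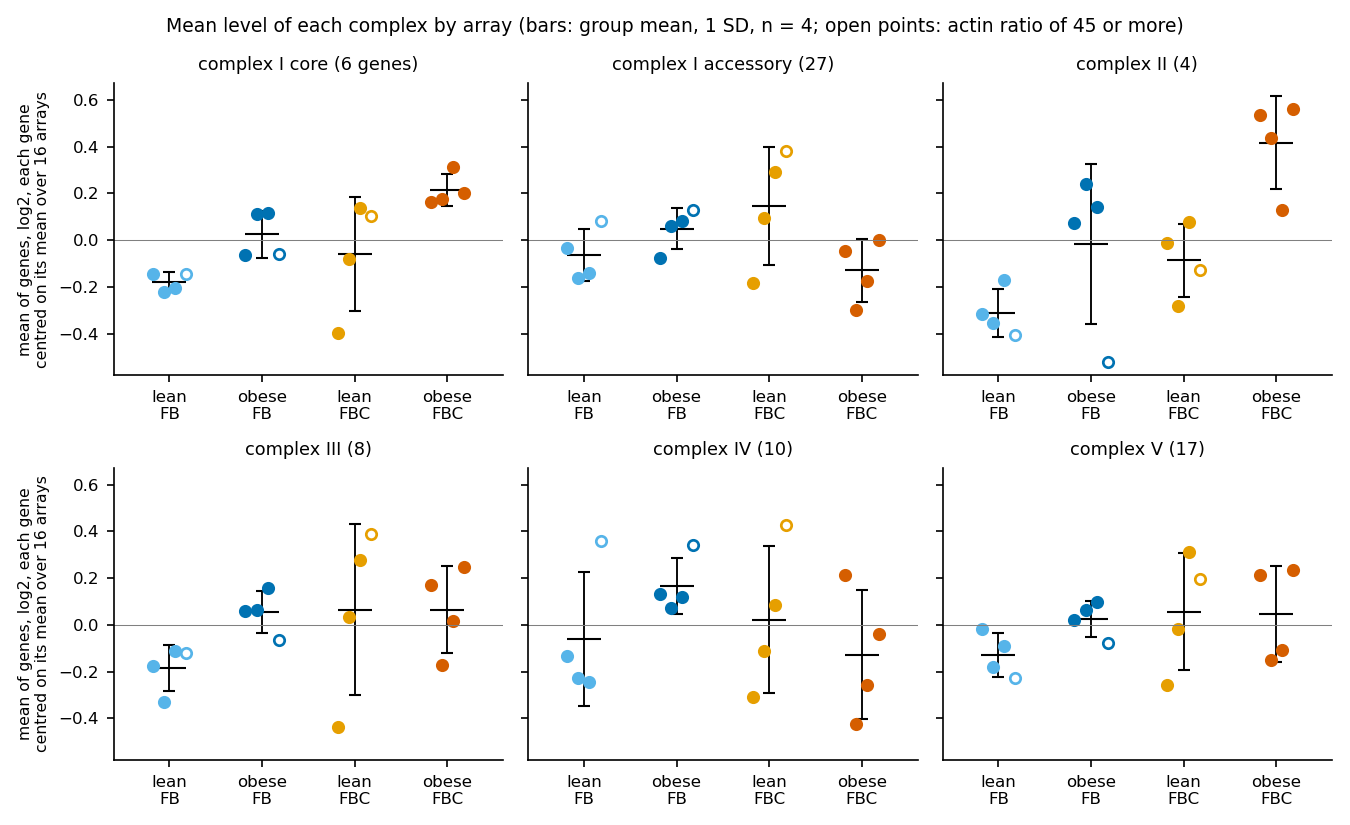
Mean log2 level of the tested genes of each complex on each array (vertical axis, each gene centred on its mean over the 16 arrays); points are arrays, bars the group mean and 1 SD, and open points the 3 arrays with an actin ratio of 45.0 or more. The complex I core spans 0.17 to 0.31 and complex II 0.13 to 0.56 in obese FBC, both above lean FBC (up to 0.14 and 0.08), while the accessory subunits and complexes III, IV and V overlap between lean and obese FBC.

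The members' median residual standard deviation within groups was 0.296, against 0.350 for all genes tested, without matching for signal level. The steadiest were Ndufc2 (0.108), Uqcrb (0.117) and Cox5a (0.121), and the least steady Cox6c (0.952), Uqcrh (0.681), Cox7c (0.637) and Sdhc (0.562). For 39 members a further 65 probe sets passed the same filter, and in obese against lean FBC 41 of these had the sign of the chosen probe set and 24 the opposite sign. Ndufs1, Ndufs3, Uqcrc1, Ndufb3 and Ndufaf6 are each measured by a single probe set, so their changes have no second reading here.

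Neighbouring parts of mitochondrial metabolism were read from lists beside the members. Complex V, the ATP synthase, had 17 genes tested and 1 call in obese against lean FBC, its catalytic beta subunit Atp5b. Atp5b read 11.46, 11.24, 11.64 and 10.97 in lean FBC and 11.81, 12.65, 12.53 and 12.24 in obese FBC, without overlap. It rose by 0.98 ± 0.24 (adjusted p = 0.0119), and was also higher in obese FBC than in obese FB, by 0.94 ± 0.24. The median over complex V was -0.07, and 1 of 17 higher (5.88%) is near the share over all genes. Of 31 assembly factors outside the symbol rule, 2 were called higher and 2 lower in obese FBC, 6.45% each way, which is near the 8.12% and 5.95% of all genes. Nubpl, which delivers iron-sulfur clusters to complex I, rose by 1.15 ± 0.26 and Acad9, a complex I assembly factor, by 0.73 ± 0.20. Both were also called in obese FBC against FB, at 1.03 ± 0.26 and 0.78 ± 0.20. Cox17, the copper chaperone of complex IV, fell by 0.97 ± 0.28 and the complex III factor Uqcc2 by 0.79 ± 0.25.

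The mitochondrial ribosomal proteins, which translate the mitochondrially encoded subunits, numbered 76 tested. In obese against lean FBC 9 were called higher (11.8%, against 8.12% of all genes) and 2 lower (2.63% against 5.95%), with a median of 0.16. Mrpl46 rose by 0.83 ± 0.20, while Mrps6 fell by 1.24 ± 0.25 and Mrpl33 by 1.02 ± 0.32. In FB 3 were called higher (3.95%) and 1 lower (1.32%), among them Mrps10 at 1.19 ± 0.26. Of the mitochondrially encoded genes themselves, 1 was measured, listed as ND5, and it was not called in any comparison (-0.31 ± 0.26 in FBC and -0.71 ± 0.26 in FB).

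Of 21 genes of the tricarboxylic acid cycle and pyruvate dehydrogenase, which feed the chain, 4 were called higher (19.0%) and 1 lower (4.76%) in obese FBC, and 2 (9.52%) and 1 (4.76%) in obese FB. Over all genes tested, 1.81% were called higher and 4.07% lower in obese FB. Pdk1, a kinase that switches pyruvate dehydrogenase off, rose by 1.36 ± 0.25 in FBC and by 1.20 ± 0.25 in FB. Pdk4, another such kinase, fell by 0.87 ± 0.28 and by 1.97 ± 0.28. Ogdh, a subunit of the 2-oxoglutarate dehydrogenase complex, rose by 0.92 ± 0.28 in FBC. Of 17 genes of cytochrome c and ubiquinone synthesis, 1 was called in obese FBC, the ubiquinone-binding Coq10b, which fell by 0.69 ± 0.19. In obese FBC against FB, 2 of these 17 genes were called higher (Pdss2 and Coq3, both enzymes of ubiquinone synthesis) and 2 lower (Coq10b and Coq2). Over all genes tested, 5.11% were called higher and 3.28% lower there.

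Of 19 tested regulators of mitochondrial biogenesis, 1 (5.26%) was called in each obesity comparison, the lipid-responsive nuclear receptor Pparg. It rose by 1.14 ± 0.20 in FB and by 0.68 ± 0.20 in FBC. Nrf1 changed by -0.44 ± 0.27 in FBC, Gabpa by -0.18 ± 0.16, Yy1 by -0.16 ± 0.18, Tfam, which packages and transcribes mitochondrial DNA, by 0.29 ± 0.20, and the coactivator Ppargc1b by -0.64 ± 0.26, none of them called. Of 19 hypoxia response genes, 2 were called higher (10.5%) and 4 lower (21.1%) in obese FBC, where the shares over all genes were 8.12% and 5.95%. Pdk1, counted above, is 1 of the 2 higher. The others include Ldha at 0.92 ± 0.25 and Hif1a at -0.74 ± 0.19. Of 19 genes of oxygen radical handling, the peroxide-degrading enzyme Cat rose by 0.66 ± 0.16 and the mitochondrial superoxide dismutase Sod2 fell by 0.49 ± 0.15 in obese FBC. Each is 1 of the 19, or 5.26%. Of 13 cell cycle genes, 2 were called higher (15.4%) in obese against lean FBC. In obese FBC against FB 5 of the 13 were, where 5.11% of all genes tested were called higher. Birc5, which acts in chromosome segregation, was among them in both, at 1.51 ± 0.23 and 1.15 ± 0.23.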

How the data were processed

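Expression was measured in 16 arrays in 4 groups of 4. The submitters' processing notes name Affymetrix Expression Console for the deposited intensity values; the summarization method is not given in the sources used here. Each array's trimmed mean was 250.0. Values were taken as log2(intensity + 16) and quantile normalized over all 45101 probe sets. Symbols came from the platform annotation: 34945 probe sets had 1 symbol, 932 several and 9160 none, and 64 were controls. Per gene the probe set with the highest mean was kept, and 11908 of 18193 genes above the array median on 4 or more arrays were fitted with limma 3.58.1 in R 4.3.3 (1 mean per group, 12 residual degrees of freedom). The fit was also run on simulated data with independent noise on every array. Shared mice and differences in actin ratio were not part of that simulation, so it does not check the p-values against them. Depth has no meaning for arrays, and the number of arrays limits precision. Labels do not say which mouse gave which array. By the design text both populations came from 4 lean and 4 obese mice, so FB and FBC arrays of a genotype share mice. The fit reported treats all arrays as independent, so its p-values may be off.

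Members and lists were chosen with earlier results of these data known. Named members were those called with groups apart, otherwise the 3 largest changes in each direction, plus the catalytic subunits and tissue-form pairs; context lists gave up to 3 called genes each, or the regulators and others chosen after their values were seen. The deviations of same-numbered lean FB and FBC arrays had r = 0.135 to 0.595, highest for number 4, of high actin ratio. Lean FB array 1 (r = 0.135) correlated best with lean FBC array 3. Same-numbered obese FB and FBC arrays had r = -0.137 to 0.310. Lean and obese arrays of the same number and population, which come from different mice, gave r = -0.00911 to 0.284. The numbers were not taken as pairs in the fit reported. Alternatives covered scaling, pseudocount, filter, probe choice, blocks, weights, the actin ratio and each array left out. Promoters came from the RefSeq table on GRCm38.p6.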

Additional observations from a re-analysis of the deposited data

Results flagged for a closer look

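For the 25 members named by rule and for the mean level of all members, each group of 4 arrays was examined for an array standing apart from the other 3. Of these 104 groups 6 had one, all of them single members, where chance gives about 1 in 20. Cox6a1 read 12.99 on obese FB array 4, above 12.60 to 12.63 on the others. Cox7c read 9.50 on lean FB array 4, above 7.45 to 7.79. Sdhc read 6.98 on obese FB array 4, below 8.58 to 8.68. These 3 arrays-by-gene values lie on arrays with an actin 3′ to 5′ ratio of 45.0 or more. Cox8c read 7.90 on obese FB array 3, above 7.57 to 7.60. Ndufa12 read 10.95 on obese FBC array 2, below 11.15 to 11.19. Ndufaf6 read 6.64 on obese FBC array 4, above 6.33 to 6.38.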

How the results depend on the processing

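The calls of Ndufs1 and Ndufs3 in obese against lean FBC and of Ndufaf6 in obese FBC against FB held under all 31 alternatives run on each. In a further alternative Ndufaf6 did not pass the filter. All of its obese FB arrays were below the array median, so these alternatives do not settle the size of its change. No median of the members changed sign under any alternative. The number of members called moved more. In obese against lean FB it was 0, and 1 with a stricter filter, with all probe sets singly, with the replicate block, with the actin ratio as a covariate or without the 3 arrays of high ratio, 2 with the mean of probe sets, and 18 with array weights; leaving out each array gave 0 to 1. In obese against lean FBC it was 6, and 10 with trended, robust variances, 23 with array weights, 8 with the replicate block and 2 to 11 over the arrays left out. In lean FBC against FB it was 0, and 6 with array weights and 1 with mouse as a random block. In obese FBC against FB it was 3, and 6 with the mean of probe sets, 10 with array weights, 1 in the fit on these groups alone, 1 with the actin ratio as a covariate, and 1 to 4 over the arrays left out. For the difference of effects it was 0, 5 with array weights and 0 to 1 over the arrays left out. Array weights raised the count over all genes in the same comparisons, for example from 701 to 3987 in FB.

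With array numbers taken as pairs, the block by mouse gave 0 members called in lean FBC against FB, 6 in obese FBC against FB (4 by the number alone, 6 with mouse as a random block) and 0 for the difference. The members' median in lean FBC against FB was 0.33 with median centring, and that of the difference was -0.49 with median centring and -0.43 to -0.20 over the arrays left out. The median of all genes in the difference was 0.07, and 0.17 without normalization between arrays. With 4 arrays a group, the number of arrays limits what a missed threshold can show. The causes of these shifts were not tested.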
